A study of Rattus norvegicus with 11 samples.

Results

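The small heat shock protein genes are 7 genes of the rat, Hspb1, Hspb2, Hspb3, Hspb6, Hspb7, Hspb8 and Cryab, of 30443 genes in the tables of the study. They were taken by gene name, and the family was selected on the levels of Hspb3, which was nearly lost from the spinal cord after spinal cord injury (SCI). Expression was measured by RNA-seq of poly-A RNA in female Sprague-Dawley rats, 12 to 14 weeks of age per the labels, which received a moderate thoracic contusion. Tissue of the epicenter was collected 1, 3 or 6 months after SCI (1M, 3M and 6M, with 3, 3 and 2 libraries). The authors excluded a further 6M library as an outlier, for its lower correlation with the other 6M replicates. The control group (3 libraries) consisted of sham animals with a laminectomy and no contusion, all collected at the 6 month time. A library comes from the pooled tissue of 3 rats, so the replicates are separate pools of animals, and the spread between them is a spread between pools.

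Small heat shock proteins are chaperones that do not use ATP. They share an alpha-crystallin domain, assemble into oligomers, bind unfolding proteins before they aggregate, and hand them to the ATP-driven HSP70 machinery or to degradation. In the nervous system Hspb1 and Cryab are known from reactive astrocytes, and Cryab also from oligodendrocytes. Hspb2, Hspb3, Hspb6 and Hspb7 are best known from heart and muscle. In humans, mutations of HSPB1, HSPB3 and HSPB8 cause inherited neuropathies of motor axons.

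Promoter sequences were matched for 5 of the 7 genes in RefSeq (Hspb1, Hspb3, Hspb6, Hspb7 and Hspb8). The 4 printed here are those of the members that the results below turn on: Hspb1 and Hspb8, which rose, Hspb6, which fell, and Hspb3. Each is the 250 bases before the RefSeq gene start, written 5′ to 3′ along the strand of the gene. Capitals mark paired units of the heat shock element, the sequence that heat shock factors bind, searched as GAANNTTC and as TTCNNGAA. Each of these letter strings reads the same on both strands.
Hspb1 (GRCr8 chr12:26432302-26432551, minus strand): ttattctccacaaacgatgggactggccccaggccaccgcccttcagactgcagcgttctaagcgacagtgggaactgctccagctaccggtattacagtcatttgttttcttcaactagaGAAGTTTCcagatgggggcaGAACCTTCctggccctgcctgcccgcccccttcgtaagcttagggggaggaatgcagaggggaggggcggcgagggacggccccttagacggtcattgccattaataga
Hspb8 (GRCr8 chr12:45837058-45837307, plus strand): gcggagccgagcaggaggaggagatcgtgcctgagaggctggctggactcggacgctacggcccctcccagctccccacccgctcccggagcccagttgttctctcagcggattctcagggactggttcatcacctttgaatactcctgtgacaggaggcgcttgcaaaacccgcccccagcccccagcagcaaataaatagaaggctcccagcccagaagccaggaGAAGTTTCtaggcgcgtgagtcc
Hspb6 (GRCr8 chr1:94934122-94934371, plus strand): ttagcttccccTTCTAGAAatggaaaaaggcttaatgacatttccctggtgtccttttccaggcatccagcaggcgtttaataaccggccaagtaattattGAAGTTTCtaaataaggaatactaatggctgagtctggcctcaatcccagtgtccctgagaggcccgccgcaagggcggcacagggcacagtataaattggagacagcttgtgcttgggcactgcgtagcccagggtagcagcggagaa
Hspb3 (GRCr8 chr2:47029166-47029415, minus strand): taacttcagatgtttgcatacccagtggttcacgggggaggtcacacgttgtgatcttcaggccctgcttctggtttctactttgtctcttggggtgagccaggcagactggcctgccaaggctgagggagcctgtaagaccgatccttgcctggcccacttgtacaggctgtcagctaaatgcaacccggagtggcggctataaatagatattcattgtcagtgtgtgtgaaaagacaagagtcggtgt
Paired units stood at positions -129 and -109 of Hspb1, at -23 of Hspb8, and at -149 and -239 of Hspb6, counted from the gene start. No match was present in the window of Hspb3 or of Hspb7. Of 33469 rat promoter windows of the same length, 7.23% held GAANNTTC, 7.48% held TTCNNGAA and 13.5% held either string. The element with 3 units, searched on both strands, was in none of the 5 windows and in 0.663% of all windows. Paired units stood before Hspb1 and Hspb8, which rose, and before Hspb6, which fell. A match of letters is a description of the sequence, not of binding.

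Library totals ran from 22925109 to 49986531 counts at 1M, from 23384218 to 26060424 at 3M, from 21430564 to 29565174 at 6M and from 10057646 to 19241259 in controls. Levels are given in CPM, the counts of a gene scaled to a common library total with TMM factors. A limit of 3 counts equals 0.0607 to 0.133 CPM after SCI and 0.171 to 0.356 CPM in controls, so low genes were measured more finely after SCI. The libraries come from 5 processing batches, and no batch contains injured as well as control libraries, which means that injury and batch cannot be told apart. All controls were collected at month 6, so at 1M and 3M injury and age at collection cannot be told apart either. Replicate 1 of 1M holds more counts than the read pairs listed for it, and without it the same 3 members were called at 1M. Markers of cord tissue were abundant. Mbp, of myelin, averaged 24530 CPM at 1M, 20130 at 3M and 22190 at 6M, against 62040 in controls, and Gfap, of astrocytes, averaged 14520 CPM at 1M, 19100 at 3M and 18940 at 6M, against 7279 in controls.

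Hspb3, the gene for which the family was chosen, was close to absent after SCI. Its raw counts were 5, 2 and 1 at 1M, 0, 0 and 1 at 3M, with 0 and 3 at 6M, against 5, 13 and 16 in controls. Summed, 12 of 224547153 counts of the 8 injured libraries fell on Hspb3, against 34 of 40962750 counts of the 3 control libraries. Injured libraries held 0 to 0.101 CPM and controls 0.467, 1.54 and 0.912 CPM, and the groups did not overlap.
The level relative to control was 8.55% at 1M (95% exact counting interval 3.42 to 18.8%), 1.39% at 3M (0.0341 to 8.26%) and 6.14% at 6M (1.21 to 19.5%). These intervals cover counting error only, and at 1M they may be too narrow because of replicate 1. Since this difference chose the gene, it is given as a description without a test.
Even in controls Hspb3 was a rare transcript. It passed the expression filter (FPKM, fragments per kilobase of transcript scaled to library size, over 1 in at least 1 library) only through control replicate 2, at 1.46 FPKM, and the other controls stood at 0.566 and 0.989 FPKM. After SCI it was listed at the lowest value of the table, 0.1 FPKM, in 6 of 8 libraries.
Since the gene was chosen for being near 0 in these same injured libraries, the times after SCI were not compared for Hspb3 either.

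Most neuron markers were also lower after SCI, as were 31.5%, 31.4% and 27.2% of all tested genes at 1M, 3M and 6M. The summed CPM of 6 motor neuron markers were 176 to 194 at 1M, 79.7 to 106 at 3M and 39.5 to 115 at 6M, against 399 to 575 in controls, with 4, 5 and 5 of 5 tested genes lower at 1M, 3M and 6M. Among them Chat, the acetylcholine-synthesizing enzyme of motor neurons, averaged 14.9 CPM at 1M, 9.09 at 3M and 6.72 at 6M, against 33.4 in controls. Of 12 general neuron markers, 10 of 11 tested were lower at each time. The eleventh was Map2, a protein of dendritic microtubules, named here after its values were seen. It was called higher at 1M (log2 fold change 1.09 ± 0.37, edgeR adjusted p = 0.0285) and not at 3M or 6M (0.34 and -0.01).
Skeletal muscle genes, listed because Hspb3 is known from muscle, moved in both directions. For 13 of them the sums were 204 to 240 CPM at 1M, 293 to 326 at 3M and 290 to 320 at 6M, against 313 to 348 in controls, so that the sums at 3M and 6M overlapped those of controls. Most of each sum came from Pygm, a glycogen phosphorylase. It averaged 193 CPM at 1M, 278 at 3M and 273 at 6M, against 265 in controls. The overlap of the sums is therefore mainly that of Pygm and does not describe the other genes of the list. Of the 8 tested, 4, 3 and 2 were lower and 1, 0 and 1 higher at 1M, 3M and 6M, with a median log2 fold change of -0.63, -0.47 and 0.23. Tnnc2, the troponin C of fast muscle, averaged 6.10 CPM at 1M, 5.49 at 3M and 7.52 at 6M, against 40.0 in controls, and was lower at each time. Tnnt3, the troponin T of fast muscle, averaged 5.12 CPM at 1M, 6.15 at 3M and 4.89 at 6M, against 3.70 in controls, and was not called (adjusted p = 0.221, 0.0628 and 0.339). The 2 calls in the higher direction were Tnni2, a troponin I, at 1M (log2 fold change 2.27) and Mb, the myoglobin gene, at 6M, with 46 and 14 counts against 1 in each control. Both are named after their values were seen. No gene of the list was at 0 in any group. The part of these cell types in the loss of Hspb3 was not tested. In tissue libraries, fewer cells of a type and less RNA per cell cannot be told apart.

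**Figure D1:**
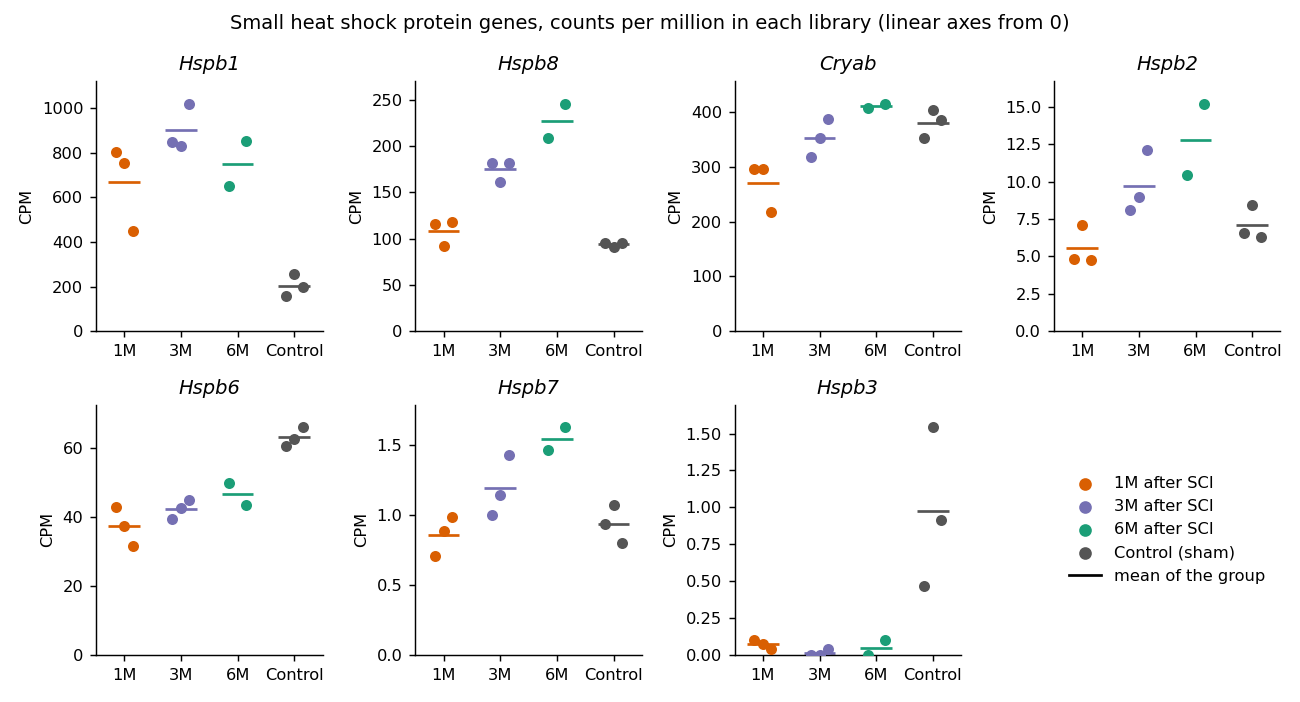
CPM (linear axis from 0) of the 7 small heat shock protein genes in every library of the 1M, 3M, 6M and control groups, with bars at group means. Hspb1 in all 8 injured libraries (449 to 1019 CPM) lies above the controls (156 to 255), Hspb6 (31.7 to 49.8) lies below them (60.9 to 66.1), and Hspb3 (0 to 0.101) lies near the axis, against 0.467 to 1.54 in controls.

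Hspb1 is a stress-induced chaperone that binds actin and intermediate filaments, and it was the member with the largest rise. Its CPM were 802, 754 and 449 at 1M, 848, 831 and 1019 at 3M, with 648.5 and 853 at 6M, against 156, 255 and 197 in controls. Every injured library exceeded every control, and 1M replicate 3 was the lowest of the injured ones.
Relative to control the log2 fold change was 1.72 ± 0.24 (SE) at 1M, 2.15 ± 0.24 at 3M and 1.89 ± 0.26 at 6M, a fold of 3.30, 4.44 and 3.71 (edgeR adjusted p = 2.454e-04, 4.635e-05 and 2.409e-04). Over all 22 alternative settings it remained between 1.57 and 1.95 at 1M, between 2.01 and 2.39 at 3M and between 1.66 and 2.12 at 6M, and was called in each. Without 1M replicate 1 the value at 1M was 1.57. The times did not differ detectably from each other (adjusted p of 0.306 to 0.935 over the 3 comparisons).

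Hspb8, which works with Bag3 in the autophagic removal of damaged proteins, was called higher at 3M and 6M and not at 1M. Its CPM were 116, 91.7 and 118 at 1M, 182, 161 and 182 at 3M, with 209 and 245 at 6M, against 95.7, 90.7 and 95.3 in controls. The 1M libraries overlapped the controls, and all libraries of 3M and 6M lay above them.
The log2 fold change against control was 0.21 ± 0.11 at 1M (adjusted p = 0.132), 0.90 ± 0.11 at 3M (7.649e-05) and 1.28 ± 0.12 at 6M (4.1e-05). The rise between times was itself tested: 3M exceeded 1M by 0.69 ± 0.11 on the log2 scale (adjusted p = 0.00781) and 6M exceeded 1M by 1.07 ± 0.12 (0.00122), while 6M against 3M was 0.38 ± 0.12 (0.522). At 1M the call depended on the scaling, the expression filter and 1 library, and 7 of 22 settings called it higher. With total counts it was 0.43 (adjusted p = 0.00918), with upper quartile scaling 0.33 (0.0258), on the log2(FPKM + 1) scale 0.60 (0.00291) and on the log2(FPKM + 0.1) scale 0.61 (0.00303). With no expression filter it was 0.34 (0.0357), with the count filter of edgeR 0.30 (0.0414), and without 1M replicate 2 it was 0.32 (0.0306).
Its partner Bag3 averaged 101 CPM at 1M, 113 at 3M and 93.5 at 6M, against 99.4 in controls, and passed the test at no time (adjusted p of 0.882, 0.174 and 0.572).

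Hspb6, known from smooth and heart muscle as a target of cyclic nucleotide-dependent kinases, fell. Its CPM were 42.9, 37.5 and 31.7 at 1M, 39.6, 42.7 and 45.1 at 3M, with 49.8 and 43.7 at 6M, against 60.9, 62.7 and 66.1 in controls. All 8 injured libraries lay below all controls on this scale.
The log2 fold change was -0.76 ± 0.12 at 1M (adjusted p = 4.16e-04), -0.58 ± 0.12 at 3M (0.00152) and -0.44 ± 0.13 at 6M (0.0157). On the authors' FPKM scale the levels were 24.9, 23.6 and 19.6 at 1M, 25.8, 27.0 and 28.1 at 3M, with 31.3 and 27.0 at 6M, against 34.0, 28.4 and 33.8 in controls, so that 6M overlapped control. At 6M the fall was not called in 6 of 22 settings. With total counts it was -0.21 (adjusted p = 0.149) and with upper quartile scaling -0.31 (0.0588). On log2(FPKM + 1) it was -0.13 (0.378), with no expression filter -0.33 (0.0842) and without 6M replicate 2 -0.36. At 3M the fall was not called in 2 of 22 settings, among them log2(FPKM + 1) (-0.24, 0.0793). At 1M it was called in all settings.
Hspb6 overlaps Lin37 in the GRCr8 annotation, and with the strand setting of the counting not given, reads of the pair may not be separated.

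Cryab and Hspb2 are neighbours that overlap in the GRCr8 annotation, which leaves the same doubt about reads of this pair. Cryab, the alpha-B crystallin of lens, muscle and glia, was called lower at 1M. Its CPM were 296, 297 and 218 at 1M, 318, 352 and 387 at 3M, with 408 and 415 at 6M, against 352, 403 and 386 in controls. The 1M libraries lay below the controls, the 3M libraries reached from below the controls into their range, and both 6M libraries lay just above it.
Against control the log2 fold change was -0.49 ± 0.13 at 1M (adjusted p = 0.00771), -0.11 ± 0.13 at 3M (0.471) and 0.11 ± 0.14 at 6M (0.523). Between times, 6M exceeded 1M by 0.61 ± 0.14 (adjusted p = 0.0231), and 3M against 1M was 0.38 ± 0.13 (0.0896). The fall at 1M was not called in 4 of 22 settings. Among them were total counts (-0.28, adjusted p = 0.0553), log2(FPKM + 1) (-0.24, 0.128) and 1 batch per group (-0.35, 0.0503). At 6M Cryab was called higher in 3 of 22 settings, among them total counts (0.34, 0.0367) and log2(FPKM + 1) (0.41, 0.0318). The sign at 3M was positive in 5 of 22 settings, those with total counts, upper quartile scaling, either FPKM scale or no filter.
The rise of 6M over 1M was not called without 6M replicate 1 (0.62, adjusted p = 0.0514) or without 6M replicate 2 (0.57, 0.157).

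Hspb2, a muscle chaperone that forms complexes with Hspb3, was called higher at 6M. Its CPM were 4.85, 7.13 and 4.74 at 1M, 8.12, 8.96 and 12.1 at 3M, with 10.4 and 15.2 at 6M, against 6.53, 8.42 and 6.33 in controls. Both 6M libraries lay above the controls, and the other groups overlapped them.
The log2 fold change was -0.34 ± 0.24 at 1M (adjusted p = 0.253), 0.47 ± 0.24 at 3M (0.114) and 0.87 ± 0.26 at 6M (0.0165). Compared with 1M, 6M was higher by 1.21 ± 0.25 (adjusted p = 0.0147) and 3M by 0.80 ± 0.23 (0.0579). Without 6M replicate 2, the higher of the pair, the values were 0.55 against control (0.174) and 0.88 against 1M (0.183). The call against control at 6M was lost in 3 of 22 settings, among them without control replicate 3 (0.79, 0.0586). At 3M it was called higher with total counts (0.69, 0.0236) and upper quartile scaling (0.60, 0.0478).

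Hspb7, a chaperone of heart muscle, stayed below the expression filter in every library, at 0.198 to 0.633 FPKM, and was not part of the test. Its counts were 35, 24 and 24 at 1M, 27, 31 and 34 at 3M, with 33 and 49 at 6M, against 10, 9 and 14 in controls. Scaled to library size these were 0.708 to 0.982 CPM at 1M, 1.00 to 1.43 at 3M and 1.46 to 1.62 at 6M, against 0.798 to 1.07 in controls, and the 2 libraries of 6M were the highest. In the fit without the filter the log2 fold change was 0.02 ± 0.32 at 1M, 0.49 ± 0.31 at 3M and 0.86 ± 0.33 at 6M (adjusted p = 1, 0.238 and 0.0576). With the count filter of edgeR in place of the FPKM filter it was 0.83 at 6M (0.0342).

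Hspb2 and Hspb7 had their highest mean CPM at 6M, while Hspb6 was called lower at each time. Smooth muscle and pericyte markers were higher in sum at 1M, 3M and 6M. Their summed CPM over 12 genes were 542.5 to 590 at 1M, 735 to 851 at 3M and 815 to 986 at 6M, against 464 to 522 in controls, with 5, 8 and 8 of 12 higher at 1M, 3M and 6M and 1, 0 and 0 lower. Acta2, the actin of smooth muscle, averaged 38.8 CPM at 1M, 75.2 at 3M and 99.5 at 6M, against 28.2 in controls.
Schwann cell markers, 8 genes, summed to 2365 to 3722 CPM at 1M, 3415 to 4358 at 3M and 4740 to 6091 at 6M, against 2394 to 3347 in controls, with 2, 4 and 6 of 8 higher and 1, 2 and 1 lower.
Beside the rise of Hspb1, markers of several cell types were higher. Microglia and macrophage markers, 12 genes, summed to 2663 to 3814 CPM at 1M, 2157 to 2245 at 3M and 1773 to 2171 at 6M, against 688 to 896 in controls, with 11 of 12 higher at each time and none lower. Endothelial markers, 9 genes, summed to 602 to 642 CPM at 1M, 673 to 705 at 3M and 631 to 755 at 6M, against 352 to 439 in controls, with 6, 7 and 6 of 8 tested higher and none lower. Fibroblast markers, 8 genes, summed to 2289 to 3077 CPM at 1M, 2694 to 4003 at 3M and 1992 to 2698 at 6M, against 918 to 1691 in controls, with 5, 7 and 4 of 7 tested higher and none lower.
The 12 astrocyte markers did not move together. They summed to 25090 to 28490 CPM at 1M, 32020 to 33690 at 3M and 32940 to 34480 at 6M, against 19380 to 22020 in controls, but 3, 2 and 3 of 12 were higher and 3, 2 and 0 lower, with a median log2 fold change of 0.07, 0.06 and 0.04. The sum followed Gfap, given above. Aldoc, the aldolase of astrocytes, averaged 2058 CPM at 1M, 2366 at 3M and 2583 at 6M, against 3028 in controls, and was lower at 1M and 3M, while S100b, a calcium-binding protein, was not called at any time.
Beside the lower Hspb6 and, at 1M, Cryab, 12 oligodendrocyte markers summed to 39660 to 42560 CPM at 1M, 31480 to 35560 at 3M and 38050 to 38960 at 6M, against 92310 to 97320 in controls, with 10 of 12 lower at each time and none higher. Of these 7 lists, Cldn5 of the endothelial one was listed at 0 counts in every library, although its FPKM reached 129. Its 0 counts therefore do not show that it was absent. No other gene of these lists was at 0 in any group. Over all tested genes, 25.5%, 29.7% and 26.8% were called higher and 31.5%, 31.4% and 27.2% lower at 1M, 3M and 6M. The part of these cell types in the results was not tested.

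**Figure D2:**
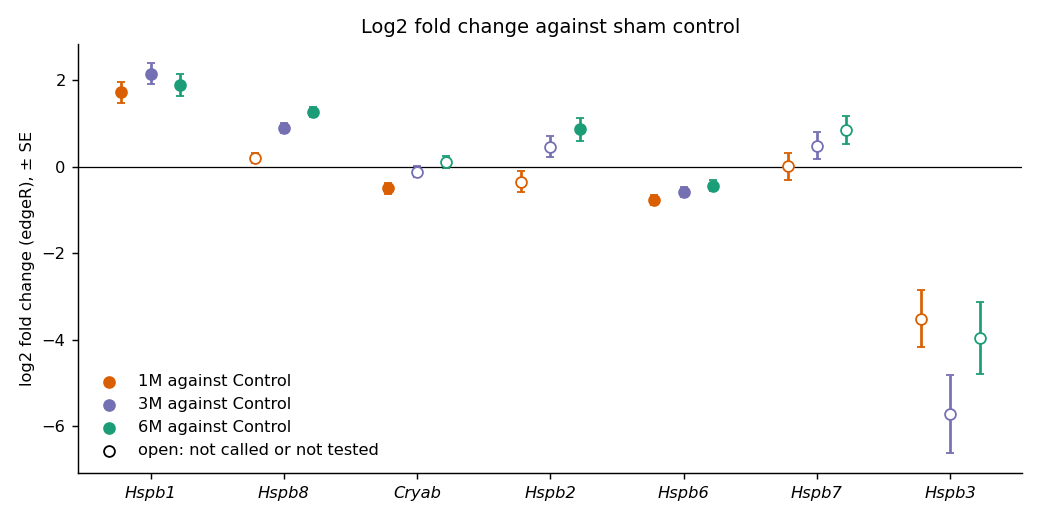
Log2 fold change against control (edgeR, vertical axis, bars are ± SE) of the 7 genes at 1M, 3M and 6M, with filled points for an adjusted p under 0.05 and open points for values not called or, for Hspb3 and Hspb7, not tested. Hspb1 stands at 1.72 to 2.15, Hspb6 at -0.76 to -0.44, and Hspb8, Cryab and Hspb2 are each highest at 6M. The fitted values of Hspb3 (-3.51, -5.72 and -3.95) rest on 8, 1 and 3 counts at 1M, 3M and 6M, against 34 in controls.

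Counted over the 5 members tested against control, 3 were called at 1M, with Hspb1 higher and Hspb6 and Cryab lower, beside 57.1% of the 14867 tested genes called in either direction (25.5% higher and 31.5% lower). At 3M 3 were called, Hspb1 and Hspb8 higher and Hspb6 lower, beside 61.1% (29.7% higher and 31.4% lower). At 6M 4 were called, Hspb1, Hspb2 and Hspb8 higher and Hspb6 lower, beside 54.1% (26.8% higher and 27.2% lower). The shares called in the family were therefore close to those of all tested genes at 1M and 3M, and a list of 5 does not resolve the difference at 6M.
The median log2 fold change of these 5 was -0.34 at 1M, 0.47 at 3M and 0.87 at 6M, beside -0.05, 0.00 and 0.00 over all tested genes. Scaling by total counts moved the median of all genes up by 0.21, 0.22 and 0.22 for 1M, 3M and 6M, and log2(FPKM + 1) by 0.31, 0.36 and 0.30. With total counts, higher genes made up 63.1%, 64.2% and 65.5% of the called genes at 1M, 3M and 6M, and on log2(FPKM + 1) 72.5%, 74.6% and 73.9%, beside 44.8%, 48.7% and 49.6% with TMM. Among the members, total counts gave 2 higher and 1 lower at 1M, 3 and 1 at 3M, with 4 and 0 at 6M.

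Of the 5 members tested between times, with Hspb3 left out, Hspb8 was called at 3M against 1M, beside 8.32% of all tested genes (5.02% higher and 3.3% lower). For 6M against 1M, 3 were called, Hspb2, Hspb8 and Cryab, all higher at 6M, beside 10.1% (6.12% higher and 3.95% lower). For 6M against 3M none was called by edgeR or by DESeq2, beside 0.0336% of all genes (0.0202% higher and 0.0135% lower), and 1, Hspb8, had an unadjusted p under 0.05.

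The order of levels per gene length changed after SCI. In FPKM, all 8 injured libraries had the order Hspb1, Cryab, Hspb8, Hspb6, Hspb2, Hspb7 and Hspb3, from high to low. In controls Hspb1 and Cryab stood together at 221 ± 50.1 and 206 ± 9.10 FPKM (SD, n = 3), with Cryab above Hspb1 in 1 of 3 libraries, and Hspb6 (32.1 ± 3.18) and Hspb8 (30.7 ± 4.52) also did not differ beyond their spread. Hspb3 stood below Hspb7 in all 8 injured libraries and above it in all 3 controls, a difference that rests on the levels that chose it.
Summed over the 7 genes, FPKM were 733 to 1112 at 1M, 1256 to 1502 at 3M and 1158 to 1415 at 6M, against 451 to 529 in controls. Hspb1 supplied 70.5 to 76.5% of the sum at 1M, 72.9 to 74.9% at 3M and 65.8 to 70.1% at 6M, against 38.1 to 51.4% in controls. The share of Cryab was 16.6 to 19.5% at 1M, 17.3 to 18.8% at 3M and 19.7 to 23.1% at 6M, against 37.2 to 45.6% in controls. Such a share is taken within a library, and the 2 sets of libraries did not overlap for either gene. It is not the level of the gene: in FPKM, Cryab itself averaged 176 ± 29.0 at 1M, 239 ± 21.1 at 3M and 273 ± 8.68 at 6M (SD, n = 3, 3 and 2), against 206 ± 9.10 in controls (n = 3), so its smaller share at 3M and 6M stood beside a higher mean FPKM.
Hspb6 supplied 1.87 to 2.70% after SCI and 5.37 to 7.55% in controls.

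**Figure D3:**
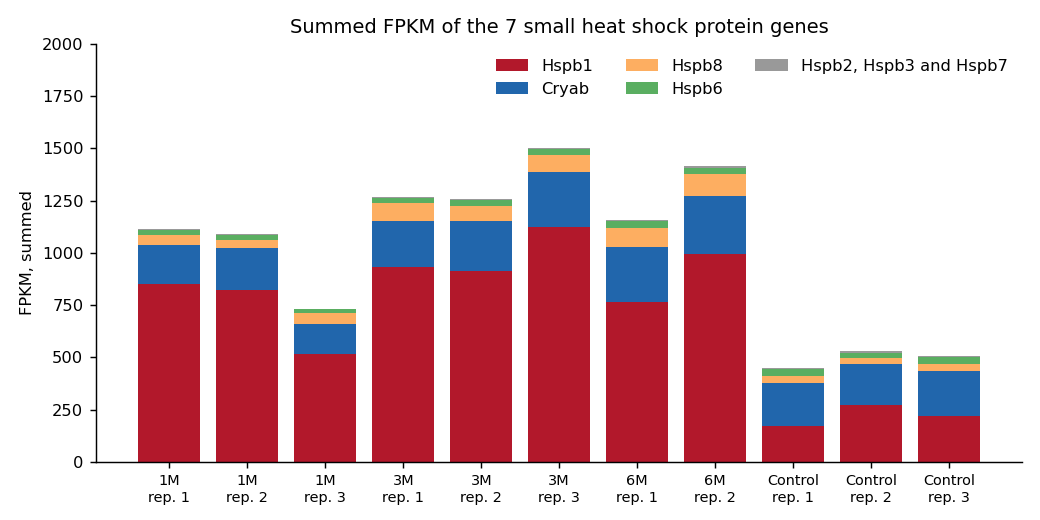
Summed FPKM (vertical axis, from 0) of the 7 small heat shock protein genes in each of the 11 libraries, stacked by gene. The bars of injured libraries reach 733 to 1502 FPKM, against 451 to 529 in controls, and the red part for Hspb1 makes up 65.8 to 76.5% of them, against 38.1 to 51.4% in controls.

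Among other genes of the family, Cryaa, the alpha-A crystallin of the lens, averaged 1.48 ± 0.52 CPM at 1M, 3.95 ± 0.46 at 3M and 3.00 ± 0.30 at 6M (SD, n = 3, 3 and 2), against 1.12 ± 0.40 in controls (n = 3). Its log2 fold change was 0.45 ± 0.34 at 1M, 1.84 ± 0.32 at 3M and 1.45 ± 0.35 at 6M (edgeR adjusted p = 0.277, 6.823e-04 and 0.00579). Hspb9 and Odf1, both known from testis, did not pass the expression filter.

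Of the 3 heat shock factor genes, whose proteins bind heat shock elements, none was called higher at any time. Hsf1, the main stress-activated factor, averaged 48.8 CPM at 1M, 52.9 at 3M and 48.5 at 6M, against 53.8 in controls (log2 fold change -0.14, -0.02 and -0.15, adjusted p = 0.234, 0.849 and 0.259). Hsf2 was at 27.3, 26.1 and 29.4 CPM at the 3 times and 28.6 CPM in controls, and Hsf4 was lower at 1M (-0.72 ± 0.17, adjusted p = 0.00561), with -0.30 at 3M (0.155) and -0.44 at 6M (0.0762).
Of the BAG cochaperones of HSP70, 5 were tested, and 3, 2 and 3 were lower at 1M, 3M and 6M with none higher. Bag1 was lower at all 3 times (-0.36, -0.62 and -0.63), as was Bag2 (-1.02, -1.07 and -1.10), and Bag6 was lower at 1M and 6M (-0.23 and -0.33). Bag4 had 0.71, 0.69 and 0.37 (adjusted p = 0.0524, 0.0537 and 0.335).
In the HSP70 family, 2 of 13 tested genes were higher at each time and 3, 4 and 3 lower at 1M, 3M and 6M. Beside these and the BAG counts, 25.5%, 29.7% and 26.8% of all tested genes were higher and 31.5%, 31.4% and 27.2% lower. Hspa5, the chaperone of the endoplasmic reticulum, averaged 528 CPM at 1M, 494 at 3M and 505 at 6M, against 459 in controls, and was not called. Hspa2 rose at 1M and 3M (0.34 and 0.25) and Hspa4 at 6M (0.25).

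The DNAJ, HSP90 and chaperonin lists held calls in the lower direction and none in the higher. Of all tested genes, 31.5%, 31.4% and 27.2% were lower at 1M, 3M and 6M, and 25.5%, 29.7% and 26.8% higher. Of 13 DNAJA and DNAJB genes, which stimulate HSP70, 8, 7 and 6 were lower at 1M, 3M and 6M and none was higher, among them Dnajb2 (-0.85, -0.61 and -0.52) and Dnaja2 (-0.32, -0.48 and -0.24). Dnaja1 was not called at any time. In the HSP90 family and its cochaperones 7 of 10 were lower at each time and none higher. Hsp90ab1, the constitutive cytosolic form, averaged 1544 CPM at 1M, 1400 at 3M and 1371 at 6M, against 2035 in controls, while Hsp90b1 and Ptges3 were not called.
Of 9 chaperonin genes, which fold proteins in closed chambers, 5, 9 and 3 were lower and none higher. Hspd1 had -0.28, -0.40 and -0.16 at 1M, 3M and 6M, Cct5 had -0.19, -0.34 and -0.20, and Cct2 had -0.02, -0.34 and -0.17, of which Hspd1 at 1M and all 3 genes at 3M were called. Median log2 fold changes at 1M, 3M and 6M were 0.03, 0.10 and 0.14 for HSP70, -0.34, -0.34 and -0.24 for DNAJ, -0.65, -0.64 and -0.68 for HSP90 and -0.25, -0.40 and -0.20 for chaperonins. Many of these changes are smaller than the shift between scalings, so their direction holds for TMM scaling.

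**Figure D4:**
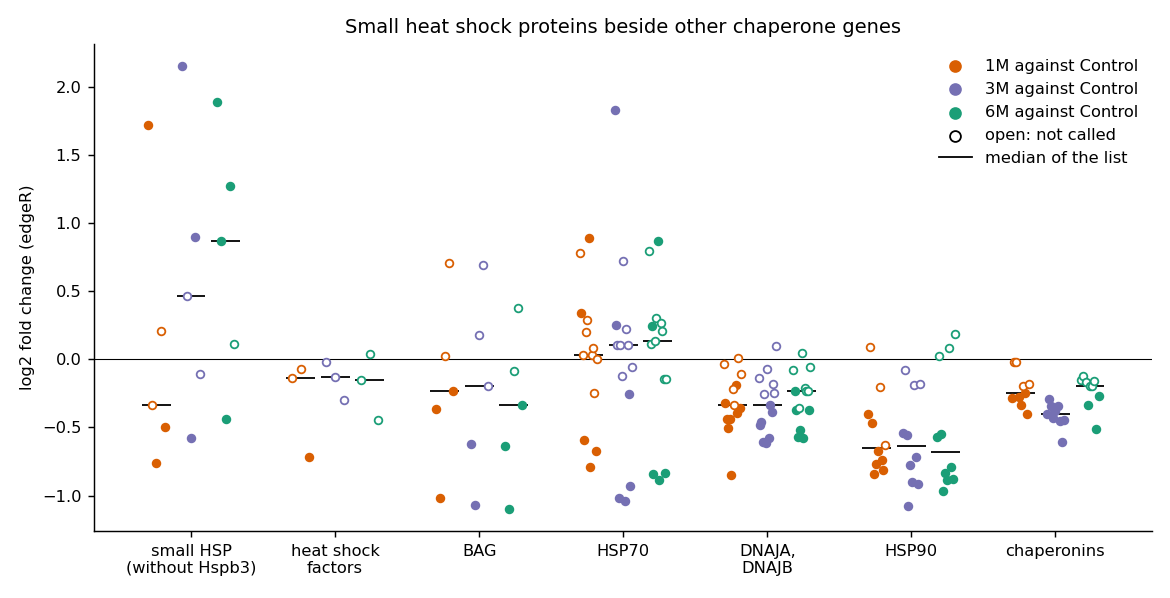
Log2 fold change against control (edgeR, vertical axis) of each tested gene in the small heat shock protein family without Hspb3 and in 6 other chaperone lists at 1M, 3M and 6M, with filled points for an adjusted p under 0.05 and black bars at list medians. The small heat shock proteins reach from -0.76 to 2.15, while the DNAJ, HSP90 and chaperonin lists hold called genes below 0 and none above it. The HSP70 list reaches from -1.04 to 1.83 at 3M and holds called genes on both sides of 0.

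Intermediate filaments are clients of Hspb1 and Cryab. Of 5 tested filament genes of glia and muscle, 3, 4 and 4 rose at 1M, 3M and 6M and none fell. Among all tested genes, 25.5%, 29.7% and 26.8% were higher and 31.5%, 31.4% and 27.2% lower at these times. Vim, the vimentin of reactive glia, averaged 2193 CPM at 1M, 2687 at 3M and 2867 at 6M, against 767 in controls (log2 fold change 1.52 ± 0.18, 1.81 ± 0.18 and 1.90 ± 0.20). Gfap, the astrocyte filament, had 1.00 ± 0.10, 1.39 ± 0.11 and 1.38 ± 0.11, and Lmna, a nuclear lamin, was not called. All 5 neuronal filament genes fell at each time, with Nefm, Nefl and Nefh between -1.73 and -1.28 at 1M, between -2.88 and -2.35 at 3M and between -3.21 and -2.64 at 6M.

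The genes most like each member were taken as the 5 with the highest Pearson r of log2 CPM over the 11 libraries. They are a description, since all points share the contrast between injured and control libraries. Closest to Hspb1 were Mt2A (r = 0.987), Pyroxd2 (0.983), Cd276 (0.981), Clcf1 (0.981) and Nod1 (0.980). Among the closest to Hspb3 were Lsm1 (0.979), LOC100360977 (0.979), Tnnc1 (0.978) and Abo (0.978). These values repeat the contrast that chose Hspb3, whose injured libraries held 0 to 5 counts.
For Hspb6 they were Oxld1 (0.980), Stx18 (0.974), Slc25a38 (0.973), Rgs3 (0.967) and Dnajb2 (0.966), and for Cryab Pecr (0.960), Mettl7a (0.952), Zmynd10 (0.943), Ppp1r1b (0.939) and Dbp (0.932). For Hspb8 they were LOC654482 (0.971), LOC683549 (0.966), RGD1310371 (0.964), LOC102557354 (0.963) and Rhbdd1 (0.963). Hspb2 was followed by LOC502684 (0.964), Akr1cl (0.951), Vwa1 (0.946), Mustn1 (0.939) and Gstm1 (0.938), and Hspb7 by Riiad1 (0.930), Prx (0.923), Mettl16 (0.908), RGD1564149 (0.906) and Ppp1r32 (0.902). No member was among the 5 closest genes of another member. When the group means were taken out first, LOC502684 (0.931) for Hspb2 was the single gene that stayed among the 5 closest.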

How the data were processed

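Counts and FPKM for 11 libraries were used. Reads had been mapped by the authors with TopHat2 2.1.0 to build Rnor6, and the deposited counts are raw HTSeq read counts per gene, with no normalization. The authors' FPKM came from Cufflinks 2.2.1, with values below 0.1 set to 0.1, which holds for 41.8% of the deposited FPKM. For HTSeq, version and strand option are not given in sources used here.

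The 14867 genes whose FPKM passed 1 in any library entered edgeR 4.0.16 in R 4.3.3 (TMM, robust quasi-likelihood, 1 fit over 11 libraries, Benjamini-Hochberg over all genes, called at an adjusted p under 0.05). The SE is the log2 fold change divided by the root of F. Counting intervals are exact, at 95%. Alternatives used DESeq2 1.42.0, limma 3.58.1 on log2(FPKM + 1) and log2(FPKM + 0.1), other scalings and filters, only the groups compared, a replicate block, 1 batch per group (1M replicate 3 and control replicate 3 left out), and leaving out each library.

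Named were the 7 members, all genes of the heat shock factor, BAG and remaining family lists, and of each other list counts and the 3 tested genes with the highest mean FPKM, of which some are shown. Of the genes most like each member, 1 is not reported here. The members and lists were chosen with earlier results of these data known. Hspa1a, Hsp90aa1 and Bag5 were listed at 0 counts in every library, so no value is given, and none is given for Hspa8, whose reads near-identical copies may share. Promoters are from RefSeq, GRCr8, a build other than that of the counts.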

Additional observations from a re-analysis of the deposited data

Results flagged for a closer look

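The effect of SCI on 3 members differed between times by the test of the times against each other (edgeR, adjusted p under 0.05). Hspb8 was higher at 3M than at 1M by 0.69 on the log2 scale (adjusted p = 0.00781), in 3 of 3 libraries above every 1M library, and at 6M than at 1M by 1.07 (0.00122), in 2 of 2. Hspb2 was higher at 6M than at 1M by 1.21 (0.0147), with both 6M libraries above the 3 of 1M. Cryab was higher at 6M than at 1M by 0.61 (0.0231), again with both above all 3. All libraries of 6M belong to 1 processing batch and none of 1M does, so batch and time cannot be told apart in the differences of 6M from 1M. Time after SCI and age at collection cannot be told apart either. The 3M libraries share a batch with 1M replicates 1 and 2, within which Hspb8 was higher at 3M by 0.75 (0.0350).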

How the results depend on the processing

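For the 5 members tested against control and the contrasts between times (30 results without Hspb3 and Hspb7), 619 of 660 values over 22 alternatives stayed on the same side of the threshold, 23 lost a call, 18 gained one, and no called value changed sign. Leaving out each library in turn gave 3 to 4 members called at 1M against control, 3 at 3M, 2 to 4 at 6M (2 without 6M replicate 2), 1 to 2 for 3M against 1M, 1 to 3 for 6M against 1M (1 without 6M replicate 2) and 0 for 6M against 3M. Without control replicate 2, 6M replicate 1 or 6M replicate 2, Hspb2 was also called at 3M against 1M, where DESeq2 called 3 members and the fit of only the groups compared 2. For 6M against 1M, only the groups compared and 1 batch per group each left 1, Hspb8. On log2(FPKM + 1) the fitted value of Hspb3 against control was -0.83, -0.84 and -0.83 at 1M, 3M and 6M. On log2(FPKM + 0.1) it was -2.30, -2.38 and -2.30. Both FPKM scales are bounded below by the floor of 0.1 FPKM and the added constant. On counts the value moved to -7.54 at 3M without 3M replicate 3. At 6M it moved to -3.18 and -7.49 without 6M replicate 1 and 2. The causes of these changes and of the changed calls were not tested.

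Replicate numbers did not pair the libraries (correlation of deviations -0.42 to 0.32 over 15 same-numbered pairs, -0.42 to 0.43 over 30 others). The replicate block left 3, 3 and 4 members called against control, 1 for 3M against 1M and 0 for 6M against 3M, and 2 for 6M against 1M, where Cryab was no longer called (adjusted p = 0.0617). Over all genes, the count of calls moved by over 1.5 times from 1237 at 3M against 1M to 2428 (DESeq2), 2200 (only the groups compared), 789 and 503 (log2(FPKM + 1) and log2(FPKM + 0.1)), 632 (replicate block) and 356 (1 batch per group). For 6M against 1M it moved from 1497 to 2553 (DESeq2), 471 (only the groups compared), 920 (log2(FPKM + 0.1)), 893 (replicate block) and 928 (1 batch per group), and for 6M against 3M from 5 to 133 (DESeq2), 11 (log2(FPKM + 1)), 13 (no filter), 3 (total counts, 1 batch per group) and 1 (replicate block). Leaving out 1 library at a time gave 270 to 1850, 256 to 1972 and 0 to 14 calls in these 3 comparisons. Depth limits Hspb3 and Hspb7 above all, with at most 16 and 49 counts in a library.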
